A study of Homo sapiens with 6 samples.

Results

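AMP-activated protein kinase (AMPK) senses the energy state of the cell and is a heterotrimer of a catalytic α subunit, a scaffolding β subunit and an adenine-nucleotide-binding γ subunit. A rise of AMP or ADP over ATP acts on the γ subunit, LKB1 (gene STK11) together with its scaffold MO25α (gene CAB39) phosphorylates the α subunit, and the active kinase slows lipid synthesis and growth and promotes catabolism. In the gut, LKB1 is known as the tumour suppressor lost in Peutz-Jeghers syndrome.

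Expression of 10 genes of this system was examined, chosen by name from the 56638 gene symbols counted in each library. They were the α subunits PRKAA1 and PRKAA2, the β subunits PRKAB1 and PRKAB2, the γ subunits PRKAG1 and PRKAG2, the upstream kinase STK11 and its partner CAB39, the lipid enzyme ACACB (acetyl-CoA carboxylase 2) and the transcription factor FOXO3. The RNA-seq covered 6 libraries, all from a colorectal cancer line. Of these, 3 were from cells given a nonspecific control siRNA and 3 from cells given siRNA against the long non-coding RNA GLCC1 (lncRNA-AF339830). The study selected GLCC1 for its rise under glucose starvation and in colorectal tumours, and for its association with poor prognosis. Titles number the libraries of each group after the word siRNA, and these numbers are called replicates here. The study lists different GLCC1 siRNA sequences by number, so whether the numbers mark replicates or sequences could not be told apart. The labels name no genetic change and no glucose withdrawal in either group, and both were grown in serum-containing medium. The labels give the line as SW480, whereas the study's methods give DLD-1, and which it was could not be told apart here. The study's reporting statement says in general that biological replicates were independent and collected apart, but the labels do not say this of these libraries, so p-values measure the spread between them, which may be in part technical.

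Depth ranged from 11948790 to 19042516 read pairs counted on genes in a library. GLCC1 has no row of its own in the files. FARP1, whose locus holds GLCC1, had 111 ± 2.13 CPM (counts per 1000000 counted on genes, TMM-scaled) in control siRNA and 64.8 ± 1.32 CPM in GLCC1 siRNA libraries (SD, n = 3 each). The titles, source names and genotypes set the groups, but the names of the sequenced libraries in the labels give the reverse assignment, and every direction given here would turn if those names were right. All 8 markers of colon epithelium were detected, with 5 of them lower and 1 higher in edgeR at an adjusted p under 0.05. Their summed level was 5644 to 6161 CPM in control siRNA and 2399 to 2770 CPM in GLCC1 siRNA libraries. The keratin KRT8 had a mean of 3584 CPM in control siRNA and 1177 CPM in GLCC1 siRNA libraries. KRT19 had 881 and 347 CPM, and KRT18 had 423 and 120 CPM. CDH17, the marker called higher, had 134 and 183 CPM. Of 12 markers of leukocytes, endothelium and fibroblasts, 7 were at 0, and the summed levels were at most 1.40 CPM for leukocytes and for endothelium. The fibroblast sum was 11.8 to 15.0 CPM in control siRNA and 6.68 to 7.94 CPM in GLCC1 siRNA libraries, all of it COL1A1, with COL1A2, DCN and LUM at 0. The part of these shifts in the results was not tested, and in bulk RNA fewer cells of a type and less RNA per cell cannot be told apart.

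Transcripts of the β1 subunit and of both γ subunits were lower in GLCC1 siRNA libraries, ACACB was slightly higher, and the catalytic α1 subunit, β2, LKB1, MO25α and FOXO3 did not pass the test. Of the 9 members that passed the filter on low counts, 3 were called lower and 1 higher in edgeR at an adjusted p under 0.05, and none changed by 2-fold. Over all 23074 tested genes, 16.7% were called lower and 14.9% higher, so calls were common in this comparison. Among tested genes averaging 1 CPM or more, as all 9 members do, 24.8% were called lower and 20.3% higher. The median log2 fold change of the 9 was -0.05, beside 0.03 over all tested genes and -0.03 over those averaging 1 CPM or more.

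**Figure D1:**
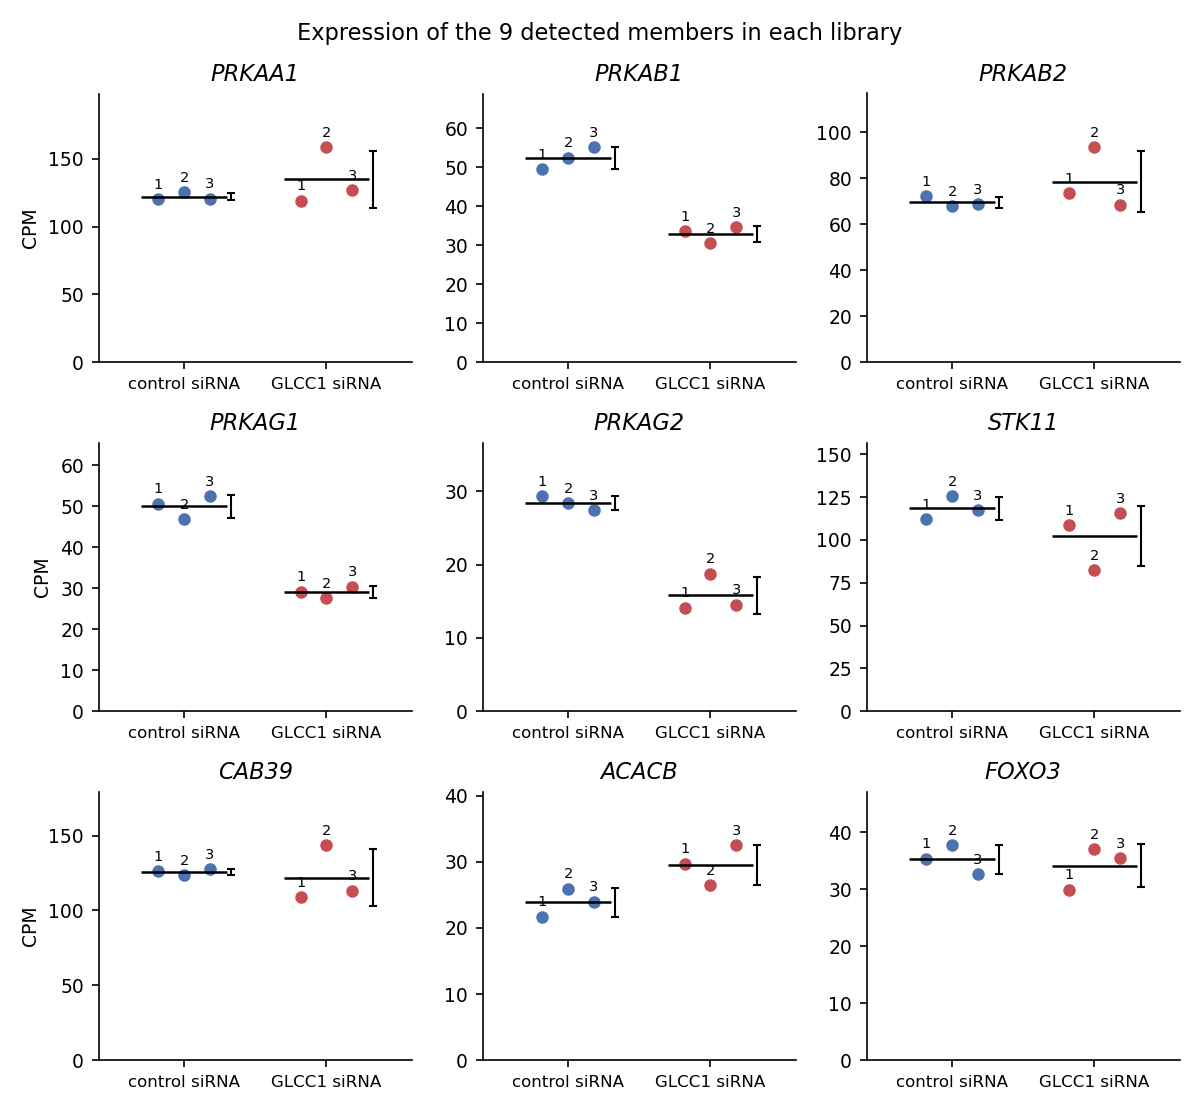
Expression of the 9 detected genes in CPM (vertical axis, from 0) in each control siRNA and GLCC1 siRNA library, with replicate numbers beside the points a line at each group's mean and a bar for its SD. PRKAB1, PRKAG1 and PRKAG2 are lower and ACACB is higher in every GLCC1 siRNA library than in every control siRNA library. The groups of the other 5 genes overlap. The share of all tested genes without overlap is not given here, so such separation cannot be called particular to these genes.

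PRKAG1 encodes γ1, the widely expressed regulatory subunit. It lies on chr12:49396057-49412590 (hg19, minus strand), and its main transcript has 12 exons. PRKAG1 had 50.5, 46.8 and 52.4 CPM in control siRNA replicates 1 to 3 and 29.1, 27.5 and 30.4 CPM in GLCC1 siRNA replicates 1 to 3. The groups were far apart relative to the spread within them, with means of 49.9 ± 2.86 and 29.0 ± 1.43 CPM (SD, n = 3 each). The log2 fold change was -0.78 (SE 0.09), to 58.2% of the control level, with an adjusted p of 3.1e-05 in edgeR, the lowest of the members.

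PRKAG2 encodes γ2, the isoform mutated in a familial cardiomyopathy with glycogen storage. It spans chr7:151253210-151574299 (hg19, minus strand), with 16 exons in its main transcript. PRKAG2 had 29.3, 28.4 and 27.4 CPM in the control siRNA libraries and 14.1, 18.8 and 14.5 CPM in the GLCC1 siRNA libraries. GLCC1 siRNA replicate 2 stood above the other knockdown libraries but still below every control library. The log2 fold change was -0.85 (SE 0.12), to 55.3% of the control level, with an adjusted p of 1.2e-04 in edgeR. The antisense gene PRKAG2-AS1 shares 99 bases with PRKAG2 exons, 0.597% of their total length, and the kit marks no strand, so reads there cannot be assigned to a strand. PRKAG2-AS1 had 9, 27 and 21 counts in control siRNA and 9, 11 and 9 counts in GLCC1 siRNA libraries (log2 fold change -0.94, adjusted p = 0.094 in edgeR).

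PRKAB1 encodes β1, a subunit that holds α and γ together and binds glycogen. It lies on chr12:120105669-120119429 (hg19, plus strand), with 7 exons. PRKAB1 had 49.6, 52.5 and 55.2 CPM in control siRNA and 33.6, 30.5 and 34.6 CPM in GLCC1 siRNA libraries. No library of one group reached the range of the other. The log2 fold change was -0.67 (SE 0.09), to 62.9% of the control level, with an adjusted p of 1.2e-04 in edgeR. Its paralog PRKAB2, encoding β2, had 72.3, 67.8 and 68.8 CPM in control siRNA and 73.5, 93.5 and 68.5 CPM in GLCC1 siRNA libraries. The PRKAB2 groups overlapped, only GLCC1 siRNA replicate 2 stood high, and the log2 fold change was 0.17 (SE 0.11, adjusted p = 0.28 in edgeR).

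The promoters of the 3 genes that fell are shown because their transcripts fell together. Each is the 250 bases before and 50 bases after a RefSeq start site (GRCh38.p14 table, placed on hg19 by exact match), written 5′ to 3′ on the gene's strand, at chr12:120105688-120105987 (plus) for PRKAB1, chr12:49412510-49412809 (minus) for PRKAG1 and chr7:151574151-151574450 (minus) for PRKAG2, for which the table lists 5 starts and the first is printed. Capitals mark GGGCGG, the GC box bound by Sp factors, and CCGGAAG, an ETS-type motif, on either strand; neither overlaps the other.
PRKAB1: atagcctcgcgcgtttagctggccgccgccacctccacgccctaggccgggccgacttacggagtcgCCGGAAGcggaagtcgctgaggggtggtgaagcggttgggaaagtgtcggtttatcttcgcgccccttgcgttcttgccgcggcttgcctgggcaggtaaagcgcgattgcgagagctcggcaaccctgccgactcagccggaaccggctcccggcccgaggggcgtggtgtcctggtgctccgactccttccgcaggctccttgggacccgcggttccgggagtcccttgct
PRKAG1: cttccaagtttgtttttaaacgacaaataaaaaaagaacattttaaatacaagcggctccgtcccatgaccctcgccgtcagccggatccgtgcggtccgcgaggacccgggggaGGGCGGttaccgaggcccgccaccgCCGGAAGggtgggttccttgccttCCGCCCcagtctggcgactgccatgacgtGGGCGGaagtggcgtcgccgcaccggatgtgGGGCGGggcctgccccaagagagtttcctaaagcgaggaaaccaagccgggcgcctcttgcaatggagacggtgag
PRKAG2: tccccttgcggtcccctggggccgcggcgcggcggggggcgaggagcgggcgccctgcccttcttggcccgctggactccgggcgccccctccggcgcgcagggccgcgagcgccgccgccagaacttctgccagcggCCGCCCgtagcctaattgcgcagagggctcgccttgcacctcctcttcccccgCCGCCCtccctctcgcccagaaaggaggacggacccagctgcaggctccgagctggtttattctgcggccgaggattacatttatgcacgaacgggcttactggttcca
For each gene only the first start in the table was searched. The E-box CACGTG, the c-Myc motif, had 0 matches in these promoters of the 10 members and was in 7.43% of 27305 such promoters of the same length. GGGCGG occurred 0 times for PRKAB1, 4 times for PRKAG1 and 2 times for PRKAG2, and 44.6% of all promoters hold it. CCGGAAG, searched only after the sequences were seen, occurred 1 time each for PRKAB1 and PRKAG1 and 0 times for PRKAG2, and 10.7% of all promoters hold it.

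PRKAA1 encodes α1, the catalytic subunit, on chr5:40759491-40798476 (hg19). It had 120.5, 125 and 120.7 CPM in control siRNA and 119, 159 and 127 CPM in GLCC1 siRNA libraries. The groups overlapped, and GLCC1 siRNA replicate 2 alone lay well above the rest. The log2 fold change was 0.14 (SE 0.10, adjusted p = 0.33 in edgeR). PRKAA2, which encodes the α2 catalytic subunit known from muscle and liver, had 0 counts in all 6 libraries. Against 99151572 read pairs counted on genes in all, 0 counts allow a level of up to 0.030 CPM, and in single libraries of up to 0.156 to 0.239 CPM, counting error only. The α subunit transcripts in these cells were therefore PRKAA1 down to that limit.

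**Figure D2:**
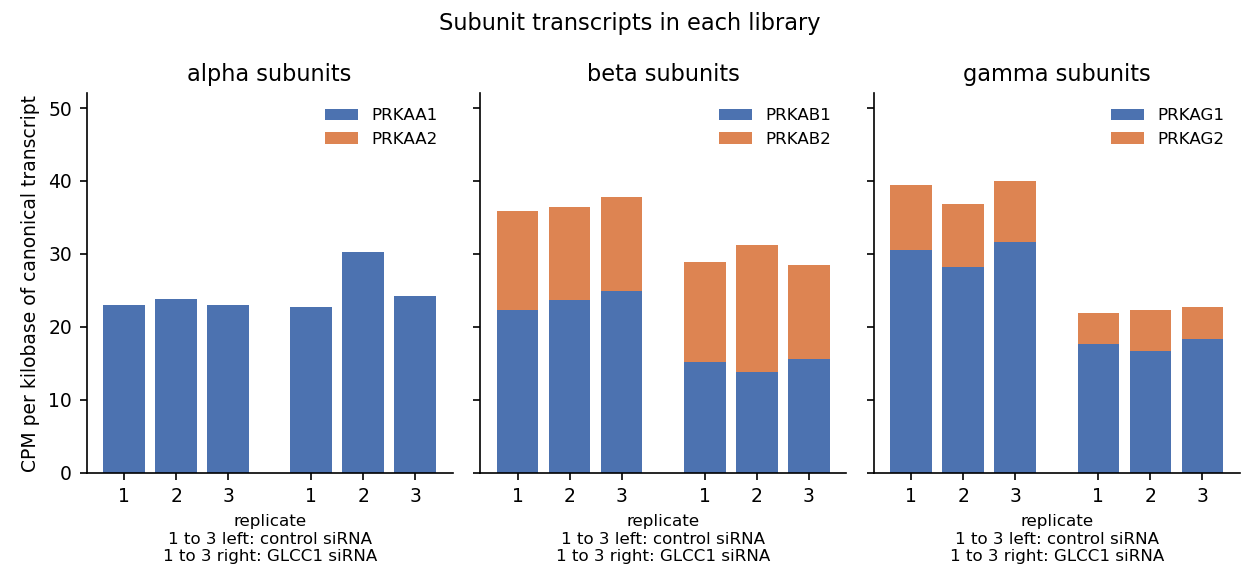
Stacked transcript levels of the α, β and γ subunit paralogs in CPM per kilobase of canonical transcript (vertical axis, from 0), one bar per library, controls on the left. The γ bars are 36.9 to 40.0 in control siRNA and 21.9 to 22.8 in GLCC1 siRNA libraries, whereas the α bars overlap.

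To compare levels between genes, CPM was divided by the length of the canonical transcript in kilobases, a scale chosen after the exon-union lengths were seen. In control siRNA libraries the order of the means ran from STK11 (35.9 ± 2.04 CPM per kilobase) and CAB39 (32.9 ± 0.52) through PRKAG1 (30.1 ± 1.72), PRKAB1 (23.6 ± 1.26), PRKAA1 (23.3 ± 0.53), PRKAB2 (13.0 ± 0.44) and PRKAG2 (8.65 ± 0.30) to FOXO3 (4.83 ± 0.35), ACACB (2.55 ± 0.23) and PRKAA2 at 0 (SD, n = 3). PRKAB1 and PRKAA1 were the neighbours whose control libraries overlapped. In GLCC1 siRNA libraries PRKAG1 had 17.5 and PRKAB1 14.8 CPM per kilobase, both under PRKAA1 at 25.7. With the union of all exons as the length, PRKAG1 ranked below PRKAA1 in control libraries as well (12.0 against 18.6 CPM per kilobase), so the order between genes depends on the length used.

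Summed over paralogs per canonical length, γ transcripts were 38.8 ± 1.65 CPM per kilobase in control siRNA and 22.3 ± 0.43 in GLCC1 siRNA libraries, 57.6% of the control level. The β sum was 36.7 ± 0.97 and 29.5 ± 1.53 CPM per kilobase, and the α sum 23.3 ± 0.53 and 25.7 ± 3.98. The γ and β sums did not overlap between groups and the α sums did. How often sums, ratios or shares of other genes separate was not examined, so such separation cannot be called particular to these subunits. With exon-union lengths the β sum was 21.4 ± 0.31 in control siRNA and 19.8 ± 2.08 in GLCC1 siRNA libraries and the groups overlapped (exact permutation p = 0.4). The ratio of γ to α transcripts was 1.67 ± 0.11 in control siRNA and 0.88 ± 0.12 in GLCC1 siRNA libraries (52.9%, and 53.2% with union lengths), and it was lower in each GLCC1 siRNA library than in any control.

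The share of β1 in the β transcripts did not overlap between groups, whereas the share of γ1 in the γ transcripts did. PRKAB1 took 40.7%, 43.6% and 44.5% of the PRKAB1 and PRKAB2 counts in control siRNA and 31.4%, 24.6% and 33.6% in GLCC1 siRNA libraries, a difference of -13.1 percentage points between the means, with no overlap. PRKAG1 took 63.7% ± 1.75 of the PRKAG1 and PRKAG2 counts in control siRNA and 64.8% ± 4.64 in GLCC1 siRNA libraries (SD, n = 3 each). These shares of counts do not depend on the normalization, but they depend on transcript length. Per canonical transcript length, PRKAB1 took 64.4% ± 1.89 in control siRNA and 50.5% ± 5.71 in GLCC1 siRNA libraries. PRKAG1 took 77.6% ± 1.31 and 78.4% ± 3.50 on that scale (SD, n = 3 each). With exon-union lengths PRKAB1 took 40.5% and 27.8%, so which β paralog was larger depends on the length used. With 3 libraries against 3 the exact two-sided permutation test cannot go below 0.1, and of 8 shares, sums and ratios tested, 6 had that p (adjusted p = 0.13). These 8 are built from the same subunit genes, so the 6 are not separate outcomes, and the sums and ratios among them used canonical lengths. The PRKAG1 share and the α sum had exact permutation p of 0.8 and 0.5 (adjusted p = 0.80 and 0.57).

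STK11 encodes LKB1, the main kinase that activates AMPK, on chr19:1177557-1228430 (hg19). It had 112, 125 and 117 CPM in control siRNA and 108, 82.4 and 116 CPM in GLCC1 siRNA libraries. The ranges overlapped, with GLCC1 siRNA replicate 2 the lowest (log2 fold change -0.21, SE 0.11, adjusted p = 0.19 in edgeR). CAB39 encodes MO25α, which stabilises LKB1 in its active complex, on chr2:231577557-231685790. CAB39 had 126, 124 and 128 CPM in control siRNA and 109, 144 and 113 CPM in GLCC1 siRNA libraries. Here GLCC1 siRNA replicate 2 lay above and the other knockdown libraries below every control, and the log2 fold change was -0.05 (SE 0.10, adjusted p = 0.76 in edgeR). Without GLCC1 siRNA replicate 2 it was -0.18 with an adjusted p of 0.0066 in edgeR, so this library decides whether CAB39 is called.

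ACACB encodes the mitochondrial acetyl-CoA carboxylase whose product malonyl-CoA restrains fatty acid oxidation, and AMPK inhibits it by phosphorylation. It spans chr12:109554392-109706031 (hg19), with 53 exons. ACACB had 21.7, 26.0 and 24.0 CPM in control siRNA and 29.7, 26.5 and 32.5 CPM in GLCC1 siRNA libraries. The groups did not overlap, but control siRNA replicate 2 and GLCC1 siRNA replicate 2 nearly met. The log2 fold change was 0.31 (SE 0.11) with an adjusted p of 0.048 in edgeR. The call was lost without control siRNA replicate 1, 2 or 3 (adjusted p = 0.20, 0.062 and 0.14 in edgeR) and without GLCC1 siRNA replicate 1 or 3 (0.093 and 0.16), whereas without GLCC1 siRNA replicate 2 the adjusted p was 1.3e-04.

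FOXO3, a transcription factor that AMPK phosphorylates and that drives stress resistance genes, lies on chr6:108881038-109005977 (hg19). It had 35.4, 37.7 and 32.6 CPM in control siRNA and 29.9, 37.1 and 35.5 CPM in GLCC1 siRNA libraries. The libraries of both groups were interleaved (log2 fold change -0.05, SE 0.11, adjusted p = 0.76 in edgeR). Its near-identical copy FOXO3B had 46, 59 and 56 counts in control siRNA and 85, 27 and 66 counts in GLCC1 siRNA libraries. Read pairs that align to several places are not counted on any gene, so pairs matching both copies may be missing from both. The FOXO3 value is therefore uncertain.

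**Figure D3:**
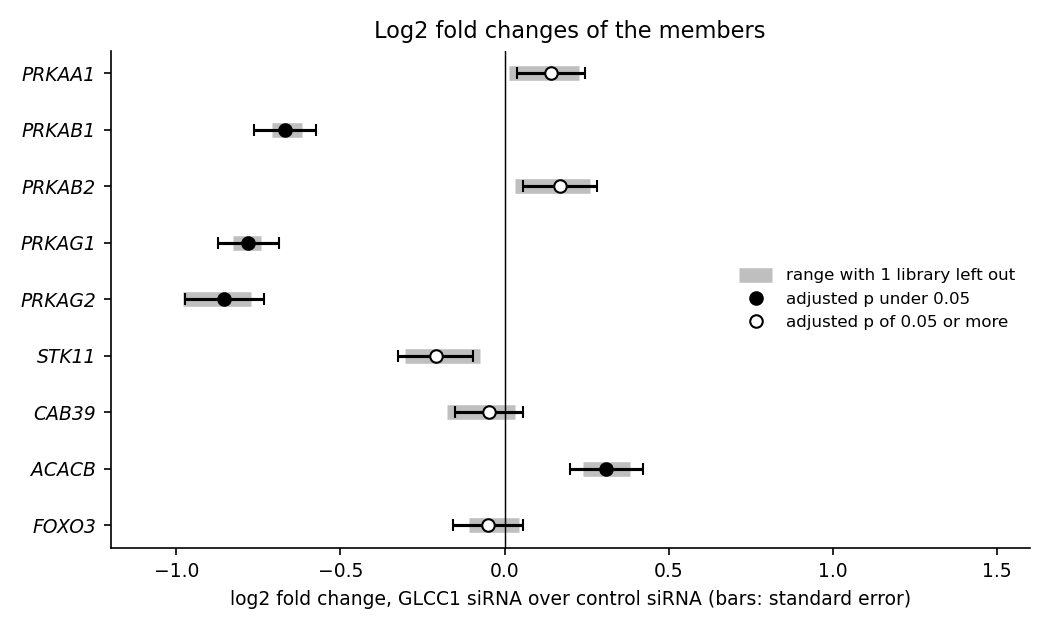
Log2 fold change of GLCC1 siRNA over control siRNA (horizontal axis) for each of the 9 tested genes, with bars for the standard error, filled points at an adjusted p under 0.05 and grey bands for the range with 1 library left out. PRKAB1, PRKAG1 and PRKAG2 stay between -0.98 and -0.62 in every such fit, whereas the bands of CAB39 and FOXO3 cross 0.

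GLCC1 siRNA replicate 2 was the extreme library of its group for all 9 members, the highest for 5 and the lowest for 4. In a group of 3 libraries any of them is often at an end, and the same count over all tested genes is not given here. GLCC1 siRNA replicate 2 was also the shallowest library, with 11948790 read pairs on genes. Of its read pairs, 12.7% fell on no gene, the largest share of the 6 libraries. The part of these properties in its values, or of a different siRNA sequence if its number marks one, was not tested. PRKAB1, PRKAG1 and PRKAG2 were called lower in each fit with 1 library left out, that library included.

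Among 77 other genes of the AMPK pathway, listed by function, 76 were tested, and 16 were called higher and 19 lower in edgeR, of which 6 changed by at least 2-fold. These shares, 21.1% higher and 25% lower, were close to the 20.3% and 24.8% of all tested genes averaging 1 CPM or more, and 1796 of all 23074 tested genes were called with at least a 2-fold change. Scaling by library totals alone gave 25 higher and 12 lower and moved the median log2 fold change of all genes from 0.03 to 0.15. The median over the list was -0.05 in the main scaling. The counts by function below are small and stand beside the same 20.3% higher and 24.8% lower of all tested genes averaging 1 CPM or more.

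Of 4 other subunits of AMPK and of the LKB1 complex, 0 were called higher and 2 lower. CAB39L, the paralog of CAB39, fell by 0.90 on the log2 scale (SE 0.21, adjusted p = 0.0053 in edgeR) from 3.63 ± 0.36 CPM. STRADB, an LKB1-binding pseudokinase, had a log2 fold change of -0.42 (SE 0.15, adjusted p = 0.048 in edgeR), with overlapping groups and an adjusted p of up to 0.19 when 1 library was left out. Of 5 other AMPK kinases and phosphatases, 0 were called by edgeR or by DESeq2 and 1 had an unadjusted p under 0.05. CAMKK2, the calcium-dependent AMPK kinase, had 61.9 ± 2.95 CPM in control siRNA and 67.9 ± 4.11 CPM in GLCC1 siRNA libraries.

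Of 11 tested AMPK-related kinases, which LKB1 also activates, 3 were called higher and 2 lower. NUAK2 fell by 0.79 on the log2 scale (SE 0.14, adjusted p = 8.7e-04 in edgeR) and SNRK rose by 0.49 (SE 0.10, adjusted p = 0.0016). NUAK1 had a log2 fold change of -0.41 (SE 0.12, adjusted p = 0.018 in edgeR), with an adjusted p of up to 0.082 when 1 library was left out.

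Of 8 genes of lipid metabolism under AMPK control, 3 were called higher and 4 lower. SREBF1 and SREBF2, the transcription factors of fatty acid and cholesterol synthesis, fell by 0.71 (SE 0.13, adjusted p = 7.6e-04 in edgeR) and by 0.77 (SE 0.13, adjusted p = 4.2e-04) on the log2 scale. MLYCD, which degrades malonyl-CoA, the product of ACACB, rose by 0.83 (SE 0.13, adjusted p = 2.9e-04 in edgeR), from 9.54 ± 0.87 to 16.9 ± 2.10 CPM. ACACB and MLYCD, which act on malonyl-CoA in opposite directions, thus both had higher transcript levels, but the ACACB call was lost in most fits with 1 library left out. ACACA, the paralog of ACACB, rose by 0.32 (SE 0.08, adjusted p = 0.0045 in edgeR), from 184 ± 4.75 to 230 ± 4.65 CPM.

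In growth control through mTORC1, 0 of 8 genes were called higher and 3 lower (37.5%, beside 24.8% of all tested genes averaging 1 CPM or more). RHEB, the GTPase that activates mTORC1, fell by 0.51 on the log2 scale (SE 0.10, adjusted p = 0.0012 in edgeR), and TSC1, whose complex restrains RHEB, fell by 0.42 (SE 0.08, adjusted p = 0.0013). EEF2K, the kinase that slows translation elongation, fell by 0.33 (SE 0.09, adjusted p = 0.012 in edgeR), with an adjusted p of up to 0.094 under other settings. Of 9 autophagy and lysosome genes, 1 was called in each direction. FNIP2, a partner of folliculin that binds AMPK, rose by 1.42 (SE 0.10, adjusted p = 3.2e-07 in edgeR), and RB1CC1, a subunit of the ULK1 complex, fell by 1.30 (SE 0.13, adjusted p = 8.7e-06).

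Of 6 genes of glucose handling, 2 were called higher and 3 lower. TXNIP, which restrains glucose uptake and is degraded on AMPK activation, rose by 1.64 on the log2 scale (SE 0.10, adjusted p = 7.9e-08 in edgeR), from 60.0 ± 4.91 to 187 ± 15.5 CPM. TBC1D1, a regulator of glucose transporter traffic that AMPK phosphorylates, fell by 1.03 (SE 0.08, adjusted p = 1.2e-06 in edgeR), and PFKFB3, which raises glycolytic flux, fell by 0.76 (SE 0.09, adjusted p = 4.0e-05). Of 4 stress-induced inhibitors of mTORC1, SESN2 rose by 1.13 (SE 0.11, adjusted p = 6.6e-06 in edgeR) and SESN3 fell by 0.62 (SE 0.13, adjusted p = 0.0018). Of 5 genes of the mitochondrial programme, 0 were called by edgeR or by DESeq2 and 1 had an unadjusted p under 0.05.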

How the data were processed

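RNA-seq of 6 libraries, 3 per group, was analysed. For each gene symbol the authors deposited unnormalized counts of read pairs, made with TopHat 2.0.11 on hg19 and HTSeq in union mode. Genes whose summed count was under 5 in each of the conditions were dropped, and counts were compared with the robust quasi-likelihood test of edgeR 4.0.16 (R 4.3.3) after TMM scaling (factors 0.950 to 1.05), with Benjamini-Hochberg adjustment over 23074 genes. HTSeq tallies of read pairs given to no gene were left out of library sizes. CPM values use TMM-scaled totals. Groups follow the titles. Shares and sums were compared with exact two-sided permutation tests.

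The members and lists were chosen with earlier results of these data known. From each pathway list, at most 3 genes of largest change with an adjusted p under 0.05 and a mean of at least 1 CPM were named. The members, the 3 genes most like the leading member and genes sharing sequence with a member were also named. ACACA, CAMKK2 and FARP1 were named outside this rule. Positions are from GENCODE on hg19, where all 10 members matched.

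Alternatives were DESeq2 1.42.0, its size factors in edgeR, library totals, filters of 1 count in any or 10 counts in every library, a replicate block, no robust dispersion, a 2-fold rule, grouping by library name and leaving out each library in turn. With 11948790 to 19042516 counted pairs per library, the SE of a member's log2 fold change was 0.09 to 0.12.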

Additional observations from a re-analysis of the deposited data

How the results depend on the processing

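PRKAB1, PRKAG1 and PRKAG2 were called lower in every fit by title groups that used an adjusted p alone, with log2 fold changes between -0.98 and -0.55. Members called higher numbered 0 to 1 with 1 library left out and 0 with the replicate block, where ACACB had an adjusted p of 0.090. Under the 2-fold rule 0 members were called in either direction, and with the groups of the library names 3 were higher and 1 lower. Library totals alone gave 25 pathway genes higher and 12 lower, and turned CAB39 (0.075) and FOXO3 (0.072), neither of them called. With 1 library left out, CAB39 ranged from -0.18 to 0.032, FOXO3 from -0.11 to 0.044 and the PRKAG1 share difference from -0.322 to 3.76 percentage points. Replicate numbers were not taken as pairs, since same-numbered deviations correlated at -0.29 to -0.01, and the replicate block called 6522 genes against 7293 without it. Without GLCC1 siRNA replicate 2, 9920 genes were called. Among the named pathway genes, STRADB, NUAK1 and EEF2K lost their call under some settings. The cause of these changes was not tested. With 3 libraries a group, changes of the size seen for STK11 or PRKAB2 were not detectable.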

Other observations

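FOXO3 itself was not called, but 2 of its 3 paralogs were, in opposite directions. FOXO1 rose by 0.56 on the log2 scale (SE 0.09, adjusted p = 2.1e-04 in edgeR), from 50.2 ± 0.44 to 74.0 ± 3.53 CPM (SD, n = 3 each). FOXO6 fell by 0.85 (SE 0.15, adjusted p = 7.5e-04 in edgeR), from 8.82 ± 0.59 to 4.85 ± 0.77 CPM. Of 13 genes known as FOXO targets, 5 were called higher (38.5%) and 2 lower (15.4%), beside 20.3% and 24.8% of all tested genes averaging 1 CPM or more. PDK4, which restrains pyruvate dehydrogenase, rose by 1.76 (SE 0.17, adjusted p = 4.5e-06 in edgeR), and the antioxidant enzymes SOD2 and CAT rose by 0.74 (SE 0.09, adjusted p = 4.9e-05) and 0.66 (SE 0.08, adjusted p = 2.5e-05). The fallers, named after their values were seen, were KLF6, a zinc-finger transcription factor, with a log2 fold change of -0.61 (SE 0.08, adjusted p = 9.1e-05 in edgeR), and GADD45A, a DNA damage response gene, with -0.35 (SE 0.12, adjusted p = 0.031).

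The genes whose log2 CPM was most like that of PRKAG1 over the 6 libraries were RPL35A (r = 0.999), RTFDC1 (r = 0.999) and KDM5B (r = 0.998), among 10377 genes averaging 10 CPM or more. The points share the difference between the groups, so these correlations are descriptions only.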
